A study of Mus musculus with 12 samples.

Results

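Pericytes are mural cells that lie within the basement membrane of capillaries and small venules. They are held there by platelet-derived growth factor B, which endothelial cells release and the receptor *Pdgfrb* binds, and by Notch signals that the receptor *Notch3* receives from the endothelium. They tune capillary flow, lay down basement membrane with the endothelium, and in inflamed tissue can release chemokines that act on leukocytes leaving the vessel. Vascular smooth muscle cells share much of this programme and add the contractile apparatus that *Myh11*, a smooth muscle myosin, belongs to.

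The pericytes of the mouse joint were taken here as cells with more than 500 and fewer than 5000 detected genes in which at least 3 of 6 mural genes (*Rgs5*, *Notch3*, *Mcam*, *Cspg4*, *Kcnj8* and *Abcc9*) were detected, at most 1 of 5 endothelial genes (*Pecam1*, *Cdh5*, *Kdr*, *Emcn* and *Egfl7*) was detected, and fewer than 2 unique molecular identifiers (UMIs, tags of single captured RNA molecules) of *Myh11* were counted. This rule found 270 cells among the 20213 that passed the limits on detected genes, and among 21042 deposited cells. The cells were thus chosen by the measured levels of these 12 genes, which are given as a description only.

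The cells came from single-cell RNA sequencing of sorted CD45-negative cells, that is cells without the leukocyte surface protein, from enzyme-digested hind limb joints. All mice were male wild-type C57BL/6 animals of 8 to 10 weeks, and joints of 3 animals were pooled for each library. Arthritis was induced by serum of arthritic K/BxN mice, given intravenously, and 3 libraries each carried 1 of 4 labels. These were rest, at day 0, peak, taken on days 7 to 9 after serum, resolving, taken on day 15, and resolved, taken on day 22. The cells within the limits on detected genes held between 7739438 and 16750555 UMIs per library, and pericytes held 20499 to 349518 of them. The 66 pairs of libraries shared 0 barcodes of such cells. The median over all deposited cells was 5358 UMIs in each of the 12 libraries. A step that brought the libraries to one depth is not described in the sources used here, so the UMIs may not be the raw depth.

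Libraries were compared by label and by barcode suffix. Barcodes of each library end in a suffix from 1 to 12. The suffixes ran from 1 to 12 over rest 1, peak 1, resolving 1, resolved 1, rest 2, peak 2, resolving 2, resolved 2, rest 3, peak 3, resolving 3 and resolved 3. Among the 8 libraries with at least 10 pericytes, the library with the most similar pericyte profile came from the same 3 neighbouring suffixes (1 to 3, 4 to 6, 7 to 9 or 10 to 12) in 4 cases and carried the same label in 0. That tally cannot weigh runs against labels. The closest library was resolved 2 or rest 2, which held the most pericyte UMIs (349518 and 199140), for all but rest 1. Rest 1 and peak 3 had no other library of their run among the 8, and resolving 2 had none of its label. Groups are therefore called libraries labelled rest, peak, resolving or resolved, and runs of 3 suffixes were compared beside them. What a run stands for is not given in the sources used here. Nor can it be told from these files whether each label belongs to the library that carries it, which bears on every comparison by label or by run. One library also stood apart in content. The 8 pericytes of resolving 1 carried *Bglap* of osteoblasts at 3634 CPM (UMIs of a gene over those of all genes in a sum, scaled to 1e+06), *Comp* of cartilage and tendon at 4997 CPM and *Dcn* of fibroblasts at 15497 CPM, while the other libraries reached at most 345 CPM of *Bglap*, 1104 CPM of *Comp* and 5481 CPM of *Dcn*.

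The 5 usual pericyte markers are all genes of the rule, so their levels describe the chosen cells and are no check of the label. Over the 8 libraries with at least 10 pericytes, *Rgs5*, a regulator of G protein signals, had 6487 ± 2349 CPM (SD, n = 8 libraries). *Kcnj8* and *Abcc9*, the subunits of the vascular ATP-sensitive potassium channel, had 448 ± 213 and 252 ± 80.3 CPM, and *Notch3* had 316 ± 55.2 CPM (SD, n = 8). *Cspg4*, the NG2 proteoglycan, was low at 44.0 ± 26.7 CPM (SD, n = 8). An *Rgs5* UMI was found in 98.5% of pericytes (95% Wilson interval 96.3 to 99.4) and in 4.51% of fibroblasts, which had median depths of 3906.5 and 5443 UMIs per cell. After thinning every cell to 2000 UMIs, which left out 6 pericytes and 93 fibroblasts, these shares were 95.8% and 2.07%. *Cspg4* was found in 18.5% of pericytes and 7.24% of fibroblasts, and in 8.71% and 2.55% after thinning, so it marked few of these cells.

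Many pericytes sat at the edge of the rule. Exactly 3 of the 6 mural genes were detected in 124 pericytes (45.9%), 4 in 95, 5 in 41 and all 6 in 10. Just outside, 494 cells had exactly 2 of them. They held 479 CPM of *Rgs5*, where the pericytes with exactly 3 held 4812 CPM, a gene of the rule that had to differ. *Higd1b*, a mitochondrial gene of capillary pericytes that the rule did not use, was at 15.5 CPM in the cells just outside and at 299.6 CPM in those just inside. Toward smooth muscle, the 93 pericytes with 1 *Myh11* UMI held 4525 CPM of smooth muscle actin, *Acta2*, and the 37 cells with 2 *Myh11* UMIs, just outside, held 5083 CPM. Only 3 cells were excluded by exactly 2 endothelial genes, and 23 pericytes carried at least 3 of 5 fibroblast genes.

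Markers of other cells differed by type. *Ptprc*, which encodes CD45, had 0 UMIs in 270 pericytes, which allows up to 1.40% of cells with a UMI (Wilson interval) and does not limit cells that express it. In all, 5 of 11 immune markers (*Ptprc*, *C1qa*, *Cd3e*, *Cd79a* and *Tyrobp*) were at 0. The summed level of the 11 immune genes was 0 to 85.1 CPM per library. The summed level of 10 endothelial genes was 26.7 to 267 CPM, with *Kdr* at 0. The 8 fibroblast markers summed to between 257 and 25196 CPM, the highest value in resolving 1, with a median of 3025 CPM, against 13591 to 31417 CPM in fibroblasts, so that resolving 1 lay within their range. *Dcn* was found in 61.5% of pericytes and 99.8% of fibroblasts (42.8% and 99.4% after thinning), and in 58.9% of endothelial cells (43.4% after thinning). *Lum* was found in 31.9% of pericytes against 95.01% of fibroblasts (19.3% and 83.1% after thinning). The 5 osteoblast genes summed to 0 to 5665 CPM and the 5 chondrocyte genes to 0 to 5050 CPM, again highest in resolving 1. Their part in the results below was not tested beyond the counts given without these cells.

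The share of pericytes was small in every library. Per cells with more than 500 and fewer than 5000 genes it was 0.745%, 1.75% and 1.99% in the libraries labelled rest, 0.667%, 1.29% and 1.15% at peak, 0.650%, 1.28% and 0.491% in the resolving and 1.46%, 2.83% and 0.524% in the resolved stage. The ranges of all 4 labels overlapped. Against the mean at rest the share differed by -0.463 percentage points at peak (p = 0.3), by -0.691 in the resolving (p = 0.2) and by 0.106 in the resolved stage (p = 1) in two-sided exact permutation tests of 3 against 3 libraries, in which 0.1 is the smallest p possible. The small positive value in the resolved stage turned to -0.507 without resolved 2 and to -0.270 without rest 1.

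Ordered by suffix, the share was 0.687% ± 0.0505 in suffixes 1 to 3, 1.498% ± 0.237 in 4 to 6, 2.03% ± 0.778 in 7 to 9 and 0.721% ± 0.371 in 10 to 12 (SD, n = 3 libraries each). Every library of suffixes 4 to 9 lay above every library of 1 to 3. The differences of 0.811 and 1.35 percentage points reached p = 0.1 in the exact permutation test, the smallest it can give, with adjusted values of 0.3 over the 6 comparisons of shares. The median depth of a pericyte was 5965.5 UMIs in suffixes 4 to 6 and 3370 to 3771 UMIs in the other runs. After thinning, the difference for suffixes 4 to 6 was 0.307 and that for 7 to 9 was 1.15 percentage points. The captured cells were sorted and digested, so a share of cells here need not be the share in the joint.

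**Figure D1:**
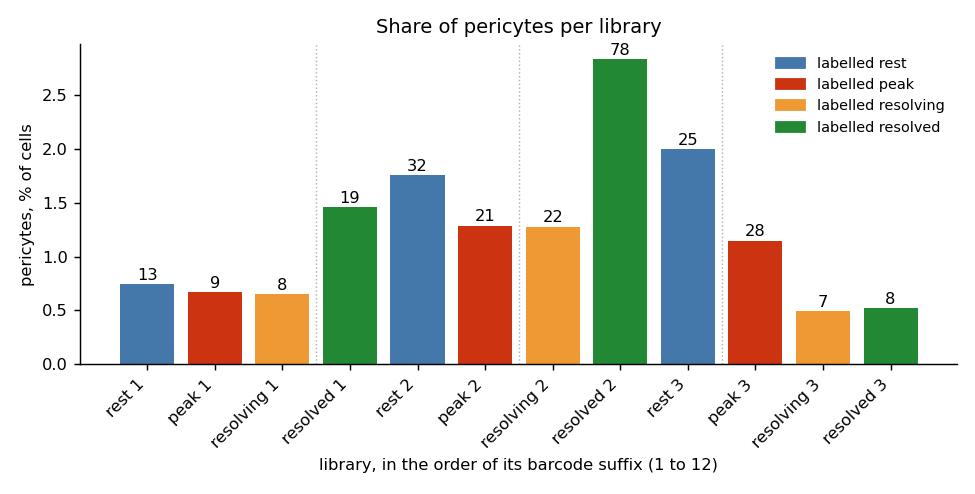
Share of pericytes among cells with more than 500 and fewer than 5000 genes, in percent, for each of 12 libraries in the order of the barcode suffix. Colours give the label, numbers above the bars count pericytes, and dotted lines separate runs of 3 suffixes; resolved 2 had the highest share with 78 pericytes, and the 3 libraries of suffixes 1 to 3 lay between 0.650% and 0.745%.

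Pericytes were then set beside 3 cell groups of the same libraries: 6653 fibroblasts, 1599 vascular endothelial cells and 166 *Myh11*-rich mural cells, which met the same rule as pericytes but had 2 or more *Myh11* UMIs. Each group was set by its own marker genes, so genes that go with those markers had to differ, and the values describe the groups. UMIs were summed per library and group, and 6657 genes that no rule used were compared with the library as a block, in 8 libraries with pericytes and, for *Myh11*-rich cells, 6 libraries with both. A gene passed edgeR's quasi-likelihood test where its log2 fold change exceeded 0.5 in size and its adjusted p was below 0.05. Against fibroblasts 873 genes were higher in pericytes (13.1%) and 1068 lower (16.0%). Without scaling beyond total counts 1269 of 1959 were higher, as this setting moved the median of all genes from -0.08 to 0.13 on the log2 scale. Against endothelium 1162 genes were higher (17.5%) and 1420 lower (21.3%), and against *Myh11*-rich cells 84 were higher (1.26%) and 168 lower (2.52%).

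Mural and contractile genes outside the rule were mostly higher than in fibroblasts. Of 16 tested contractile genes 15 were higher and 0 lower, with a median log2 fold change of 4.96. Of 18 tested mural genes of a list of 20, 16 were higher and 1, *Anpep*, lower, with a median of 3.81, against -0.08 over all genes. *Higd1b* (ENSMUSG00000020928) lay between 190 and 772 CPM in the 8 pericyte libraries, with a median of 515, and between 0 and 2.08 CPM in 12 fibroblast libraries. No library overlapped, and its log2 fold change was 9.61 (SE 0.35). *Gja4*, the gap junction protein connexin 37, followed with 8.97 (SE 0.30), at 372 ± 122 against 0.489 ± 0.583 CPM (SD, n = 8 and 12). *Pdgfrb*, the receptor for platelet-derived growth factor B, was shared with fibroblasts, at 316 ± 120 against 71.4 ± 17.3 CPM, and differed by 1.94 (SE 0.16) on the log2 scale.

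*Cox4i2* and *Ndufa4l2*, subunits of the respiratory chain that low oxygen can induce, also stood out. *Cox4i2* lay between 175 and 529 CPM in pericytes and between 1.73 and 13.4 CPM in fibroblasts, without overlap, and *Ndufa4l2* had 871 ± 173 and 191 ± 98.0 CPM (SD, n = 8 and 12). *Ebf1*, a transcription factor gene, was higher in pericytes in 8 of 8 libraries but by only 0.59 (SE 0.13). *Anpep*, an aminopeptidase, was lower than in fibroblasts, at 37.7 ± 14.4 against 88.9 ± 16.2 CPM. *Tbx18*, a transcription factor gene of mural cells, was at 20.3 ± 11.8 against 16.5 ± 2.54 CPM, which did not pass. All 18 tested mural genes were higher than in endothelium, with a median log2 fold change of 5.66.

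**Figure D2:**
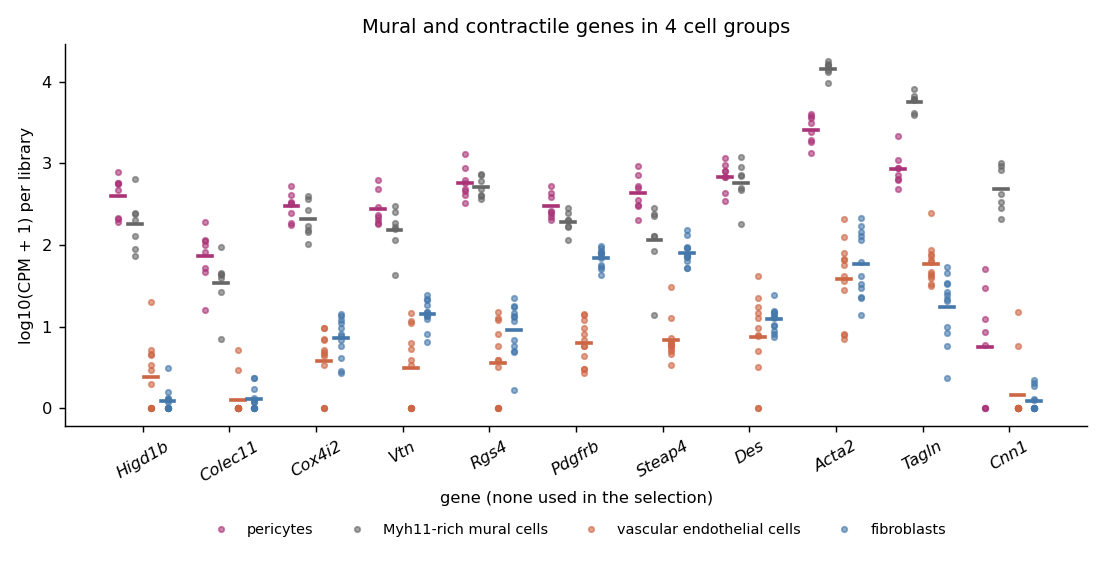
Levels of 11 genes that no rule used, as log10(CPM + 1), in pericytes, *Myh11*-rich mural cells, vascular endothelial cells and fibroblasts; each point is the sum of 1 library with at least 10 cells of that group and each bar is the mean. *Higd1b* and *Colec11* were near 0 in fibroblasts and endothelium, and *Acta2*, *Tagln* and *Cnn1* were highest in *Myh11*-rich cells.

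Against *Myh11*-rich mural cells, the contractile list was the one that differed most in count. Of 16 tested genes 14 were lower in pericytes, with a median log2 fold change of -2.24 against 0.06 over all genes. These genes go with *Myh11*, which set the groups. *Acta2* (ENSMUSG00000035783) was at 1334 to 4037 CPM in pericytes (median 2744) and at 9727 to 17753 CPM in *Myh11*-rich cells (median 15454). The ranges did not overlap, and the log2 fold change was -2.57 (SE 0.42). *Cnn1*, encoding calponin, was at 0 to 50.2 CPM against 205 to 997 CPM (log2 fold change -5.24, SE 0.48). *Pln*, phospholamban, which restrains the calcium pump, had 5 UMIs in all pericytes together and a log2 fold change of -5.27 (SE 0.74).

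Not all contractile genes followed. *Des*, the intermediate filament desmin, was at 734 ± 261 CPM in pericytes and 666 ± 327 in *Myh11*-rich cells (SD, n = 8 and 7), which differed by 0.15 (SE 0.26) on the log2 scale. *Synpo2*, an actin-bundling protein gene, was the other gene that did not pass. *P2rx1*, the ATP receptor of arterial smooth muscle, had 1 UMI in the pericyte sums against 107 in the *Myh11*-rich sums, a ratio of CPM of 148 (95% counting interval 25.9 to 5886). *Wfdc1* and *Spint2*, both protease inhibitor genes, were lower by 4.21 (SE 0.53) and 4.01 (SE 0.61) on the log2 scale.

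Few genes of the mural list separated the 2 mural groups. Of 18 tested, *Steap4* and *Ebf1* were higher in pericytes and 0 were lower, where 1.26% and 2.52% of all genes were. The median log2 fold change of the list was 0.32 against 0.06 over all genes. *Steap4*, a metalloreductase gene (ENSMUSG00000012428), was at 201 to 932 CPM with a median of 425 in pericytes and at 12.8 to 284 CPM with a median of 128 in *Myh11*-rich cells. Its ranges overlapped across libraries, but it was higher within each of 6 libraries, with a log2 fold change of 1.63 (SE 0.35). *Marcksl1*, an actin regulator gene, gave 1.69 (SE 0.40) in 6 of 6 libraries. *Mid1*, a microtubule-binding ubiquitin ligase gene, gave 1.63 (SE 0.49), a call that was lost under all 21 alternatives. *G0s2* (2.16, SE 0.64) and *Olfml3* (1.96, SE 0.44) had the largest values, but both turned lower after thinning, to -1.04 and -0.80, and *Olfml3* turned to -0.26 without the cells that carried fibroblast genes.

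**Figure D3:**
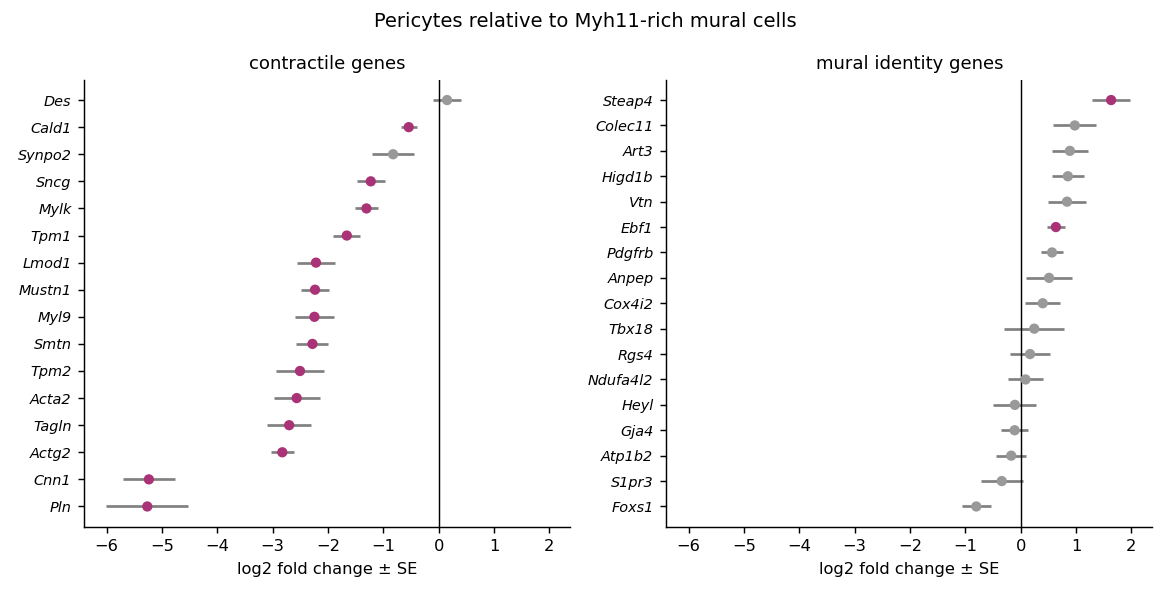
Log2 fold change of pericytes over *Myh11*-rich mural cells, with standard error, for the 16 tested contractile genes and the mural genes reported. Coloured points passed the threshold; the contractile genes reached -5.27 (*Pln*), whereas the mural genes shown lay between -0.80 (*Foxs1*) and 1.63 (*Steap4*).

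Receptors that set vessel tone formed the next group. Of 16 tested genes of 20, 13 were higher than in fibroblasts and 0 lower, with a median log2 fold change of 2.89. *Gucy1a3* and *Gucy1b3*, the subunits of the soluble guanylate cyclase that senses nitric oxide, had 163 ± 68.7 and 166 ± 59.9 CPM in pericytes and 1.75 ± 1.01 and 1.29 ± 0.937 CPM in fibroblasts (SD, n = 8 and 12). Their log2 fold changes were 6.46 (SE 0.27) and 6.78 (SE 0.23), each in 8 of 8 libraries. The endothelin receptor gene *Ednrb* was at 69.0 to 452 CPM with a median of 289 in pericytes and at 0.714 to 5.35 CPM in fibroblasts (6.80, SE 0.31), and *Ednra* was at 117 ± 47.6 against 7.19 ± 3.43 CPM. An *Ednrb* UMI was found in 50.4% of pericytes and 1.04% of fibroblasts (36.7% and 0.305% after thinning).

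The vasopressin receptor gene *Avpr1a* had 104 ± 63.7 CPM in pericytes and 3.83 ± 3.20 CPM in fibroblasts, with 1 UMI in all endothelial sums. The angiotensin receptor gene *Agtr1a* had 77.6 ± 58.4 against 8.82 ± 3.06 CPM, and *Ptgir*, the prostacyclin receptor, 79.1 ± 39.2 against 15.6 ± 6.00 CPM (SD, n = 8 and 12). Against *Myh11*-rich cells only *Pde3a*, a cyclic nucleotide phosphodiesterase, and the potassium channel gene *Kcna5* were lower among 16. *Pde3a* was at 47.4 ± 22.5 against 133 ± 47.7 CPM (SD, n = 8 and 7), and its call was lost under 10 of 21 alternatives.

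Signals between endothelium and mural cells split by side. *Pdgfb*, the ligand, had 1 UMI in the pericyte sums against 57.8 ± 12.2 CPM in endothelium, and *Dll4*, a Notch ligand, had 0 UMIs against 831, at least 51.2-fold lower at the limit of 3 counts over the group. *Tek*, the angiopoietin receptor, had 1 UMI against 842 in endothelium. *Pdgfa*, the A chain ligand, was at 299 to 506 CPM in pericytes with a median of 395, above every fibroblast library (26.0 to 69.3 CPM), with a log2 fold change of 2.69 (SE 0.21). *Angpt2*, the angiopoietin that loosens vessels, was at 77.8 ± 35.1 CPM in pericytes and 1.48 ± 1.05 in fibroblasts, and differed from the 42.7 ± 29.8 CPM of endothelium by 0.89 (SE 0.34) on the log2 scale. Of 19 tested genes of this list, 3 were higher and 12 lower than in endothelium, and 8 were higher and 5 lower than in fibroblasts.

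Among the genes with the largest differences from endothelium, *Dlk1*, a Notch-related membrane protein gene, had 270 UMIs in pericytes and 0 in endothelium, at least 487-fold higher. *Cck*, which encodes the peptide cholecystokinin, had 713 ± 1111 CPM in pericytes and 0.405 ± 1.13 in endothelium (SD, n = 8 and 12). *C1qtnf9*, *Lrg1*, *Myct1*, *Sox17* and *Fam167b* had 0 UMIs in pericytes and were at least 37.8-fold (*Fam167b*) to 292-fold (*C1qtnf9*) lower than in endothelium. Interferon-induced genes were lower too. Of 18 tested, 17 were lower than in endothelium and 0 higher, with a median log2 fold change of -1.85. Over all genes 21.3% were lower than in endothelium. Against fibroblasts 2 of the 18 were higher (*Isg15* and *Psmb8*) and 2 lower. Over all genes 13.1% and 16.0% were, so these 2 counts are no result about the list. *Isg15*, a ubiquitin-like protein gene, was at 60.6 to 170 CPM in pericytes and at 169 to 567 CPM in endothelium.

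Of 16 tested basement membrane genes, 7 were higher than in endothelium (*Col18a1*, *Lama2*, *Lamb2*, *Lamc1*, *Nid1*, *Sparc* and *Fn1*) and 2 lower (*Nid2* and *Hspg2*), while 5 were higher and 2 lower than in fibroblasts. *Lama2*, a laminin chain, differed most from endothelium, by 3.24 (SE 0.53) on the log2 scale. *Col4a1* and *Col4a2*, the chains of collagen IV, had 590 ± 247 and 627 ± 220 CPM in pericytes and 415 ± 194 and 429 ± 211 CPM in endothelium (SD, n = 8 and 12), and neither difference passed. Both were higher than in fibroblasts, by 2.46 (SE 0.23) and 2.28 (SE 0.21) on the log2 scale. *Hspg2*, encoding perlecan, was lower than in either, at 87.9 ± 37.9 CPM against 234 ± 74.8 in endothelium and 151 ± 37.6 in fibroblasts. Interstitial matrix genes were mostly lower than in fibroblasts, 12 of 21 tested, with 3 higher (*Col6a3*, *Timp3* and *Thbs1*). *Timp3*, an inhibitor of matrix proteases, was at 584 ± 410 CPM in pericytes and 172 ± 75.6 in fibroblasts.

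Pericytes carried high levels of some inflammatory genes. Of 19 tested chemokine, cytokine and adhesion genes, 6 were higher than in fibroblasts (*Ccl11*, *Cxcl1*, *Cxcl10*, *Il6*, *Il34* and *Icam1*) and 8 lower (*Ccl7*, *Ccl8*, *Cxcl5*, *Cxcl12*, *Csf1*, *Ptgs2*, *Saa3* and *Lcn2*). *Il6* (ENSMUSG00000025746), a cytokine of the acute response, lay between 1425 and 9540 CPM in pericytes (median 2335) and between 76.6 and 327 CPM in fibroblasts (median 192). The ranges did not overlap, and the log2 fold change was 3.66 (SE 0.31). An *Il6* UMI was found in 69.3% of pericytes (95% Wilson interval 63.5 to 74.5), 24.5% of fibroblasts and 16.6% of endothelial cells, and in 61.4%, 15.7% and 12.7% after thinning. *Myh11*-rich cells had 2176 ± 1342 CPM of *Il6* (SD, n = 7) and did not differ from pericytes past the threshold (0.68, SE 0.33). Of the 19 genes, *Saa3* and *Icam1* were higher than in *Myh11*-rich cells and 0 lower, where 1.26% and 2.52% of all genes were. The median log2 fold change of the list was 1.02 against 0.06 over all genes. Most of these genes were thus not shown to set pericytes apart from *Myh11*-rich cells.

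The *Il6* promoter is shown because *Il6* had the largest excess over fibroblasts in this list. The 300 bases from 250 before to 50 after its RefSeq start are chr5:30012864-30013163 of GRCm38.p6, plus strand, 5′ to 3′. Capitals mark the match to the core of an NF-κB site, searched as GGG, any 3 bases, then TTCC on both strands, which 1825 of 32851 promoters of the same length hold (5.56%). A match is a description of the letters and not evidence of binding.
Il6: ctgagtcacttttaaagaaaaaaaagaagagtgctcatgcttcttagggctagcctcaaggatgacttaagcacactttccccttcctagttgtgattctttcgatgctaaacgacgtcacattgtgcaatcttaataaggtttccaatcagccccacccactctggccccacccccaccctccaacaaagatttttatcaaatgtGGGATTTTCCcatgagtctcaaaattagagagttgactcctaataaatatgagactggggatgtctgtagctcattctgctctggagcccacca

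*Ccl11*, encoding the eosinophil attractant eotaxin, was at 780 ± 351 CPM in pericytes against 136 ± 69.7 in fibroblasts (SD, n = 8 and 12), and *Il34*, a ligand of the macrophage growth factor receptor, at 182 ± 51.4 against 14.2 ± 4.61. Their log2 fold changes were 2.43 (SE 0.40) and 3.45 (SE 0.21), each in 8 of 8 libraries. *Cxcl1*, a neutrophil attractant, was higher by 0.98 (SE 0.28). *Ccl2*, a monocyte attractant, was at 3847 ± 1577 against 1515 ± 552 CPM and did not pass (0.89, SE 0.37), although it was higher in 8 of 8 libraries. *Cxcl12*, a retention signal for leukocytes, was lower than in fibroblasts, at 541 ± 266 against 1280 ± 239 CPM. Reads that fit several related chemokine genes may have been lost in counting or counted for the wrong gene.

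These transcripts were unevenly spread over cells. *Il6* had 4198 UMIs in 270 pericytes, with 0 in 83 cells, a median of 4 and a highest value of 125 in 1 cell. The 27 cells with the most UMIs held 46.8% of the *Il6*, 48.4% of the *Ccl2* and 44.2% of the *Cxcl1* UMIs, a choice of cells by the level itself that is given as a description.

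**Figure D4:**
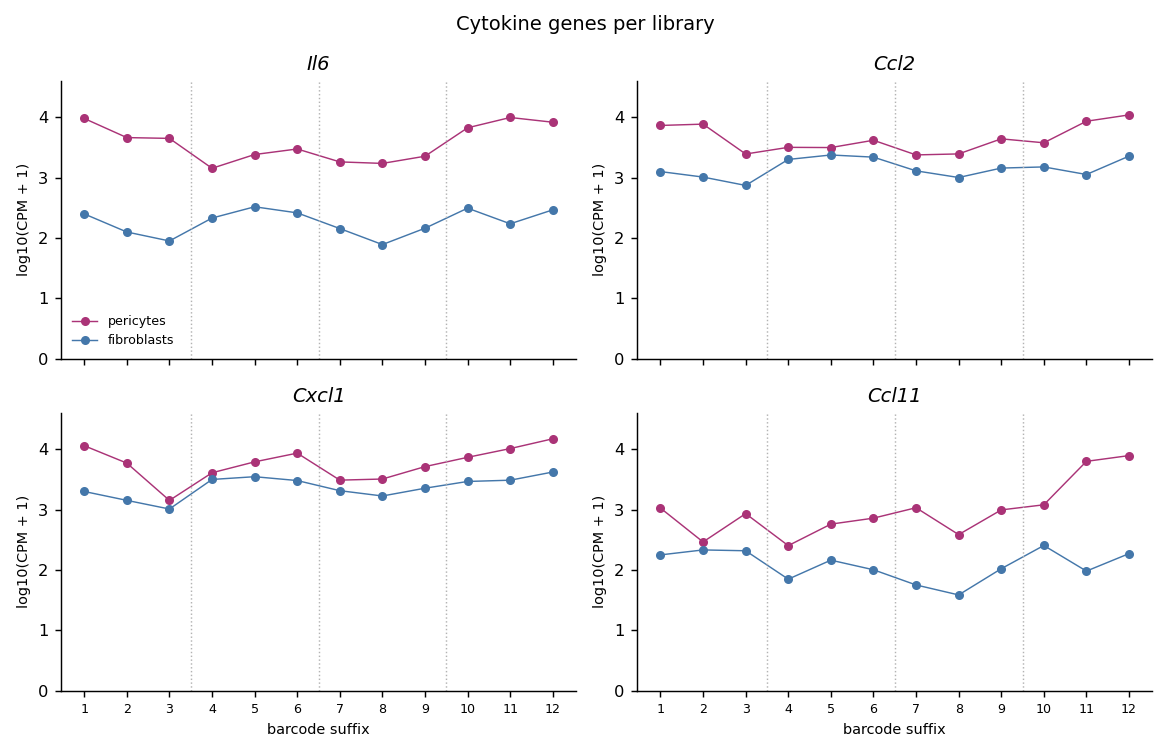
*Il6*, *Ccl2*, *Cxcl1* and *Ccl11* as log10(CPM + 1) in the summed pericytes and the summed fibroblasts of each library, in the order of the barcode suffix, with dotted lines between runs of 3; 4 of the 12 pericyte sums hold fewer than 10 cells. *Il6* in pericytes lay above fibroblasts in all 12 libraries, and *Ccl11* reached 6293 and 7839 CPM in suffixes 11 and 12.

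The labelled stages did not separate the pericytes. With the 8 libraries that held at least 10 pericytes (rest 1, 2 and 3, peak 2 and 3, resolving 2, resolved 1 and 2), 3205 genes were tested in edgeR's quasi-likelihood test, and 0 (0%) passed for peak, 0 (0%) for resolving and 0 (0%) for resolved against rest. At an unadjusted p under 0.05 there were 100, 78 and 59 genes, and DESeq2 called 0, 1 and 0. The resolving stage rests on 1 library, whose spread was taken to be that of the others. With the run of suffixes as a block, which leaves few degrees of freedom in these 8 libraries, 5, 4 and 15 genes were called, while fits of all 12 libraries with that block called 0, 0 and 0. Of the 11 pathway lists 0 had a gene that passed.

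The gene with the lowest p at peak was *Sbsn*, which encodes suprabasin. It was at 0, 25.1 and 9.57 CPM in rest 1 to 3 and at 101 and 229 CPM in peak 2 and 3, with an adjusted p of 0.999 in the edgeR test. *Itm2a*, a membrane protein gene, was at 1182 CPM in resolving 2 and at 23.0 to 172 CPM at rest (adjusted p = 0.133, edgeR). *Mmp3*, a matrix protease gene, was at 533 and 240 CPM in resolved 1 and 2 and at 0 to 57.4 CPM at rest (adjusted p = 0.253, edgeR). *Il6* was at 9540, 2410 and 2259 CPM in rest 1 to 3 and at 2978 and 6684 CPM in peak 2 and 3, so the groups overlapped (log2 fold change 0.12, SE 0.59).

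Genes did differ between runs of suffixes. This grouping was taken from earlier results of these same data, and its p-values do not allow for that choice. All 12 libraries entered this comparison, also the 4 with 7 to 9 pericytes, and 30, 72, 125 and 43 pericytes stood behind suffixes 1 to 3, 4 to 6, 7 to 9 and 10 to 12. Of 1982 genes tested against suffixes 1 to 3, 69 were higher (3.48%) and 89 lower (4.49%) in suffixes 4 to 6, and 27 were higher (1.36%) and 42 lower (2.12%) in suffixes 7 to 9. In suffixes 10 to 12 the edgeR test called 0 genes (0%), DESeq2 called 4, and 149 had an unadjusted p under 0.05. Without scaling beyond total counts 137 of 216 genes were higher in suffixes 4 to 6 and 51 of 86 in 7 to 9, a setting that moved the median of all genes to 0.14 and 0.15 on the log2 scale. Each run holds 3 different labels. Ranges did not overlap with suffixes 1 to 3 for 32.0% of the 1982 genes in suffixes 4 to 6 and 27.1% in 7 to 9, so a lack of overlap alone sets no gene apart. The cause of the differences was not tested.

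Metallothioneins, which bind zinc and copper and are induced by metals and glucocorticoids, were lower in both runs. *Mt1* (ENSMUSG00000031765) was at 20919, 11931 and 15310 CPM in suffixes 1 to 3, at 2583, 1999 and 2506 in 4 to 6, at 3526, 2183 and 2929 in 7 to 9 and at 14242, 20294 and 19076 in 10 to 12. The 6 libraries of suffixes 4 to 9 were all lower than the other 6, without overlap. The log2 fold change against suffixes 1 to 3 was -2.91 (SE 0.27, adjusted p = 1.28e-05, edgeR) in 4 to 6 and -2.61 (SE 0.26, adjusted p = 5.2e-05, edgeR) in 7 to 9. *Mt2* (ENSMUSG00000031762) was at 12298, 5949 and 9058 CPM in suffixes 1 to 3, 1775, 1341 and 905 in 4 to 6, 758, 884 and 1215 in 7 to 9 and 5708, 8781 and 12493 in 10 to 12. Its log2 fold changes were -2.91 (SE 0.36, adjusted p = 0.000179, edgeR) and -3.39 (SE 0.37, adjusted p = 6.49e-05, edgeR).

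Fibroblasts of the same libraries had 7076 to 9094, 5802 to 7405, 3739 to 6062 and 11033 to 14788 CPM of *Mt1* in these runs. They were lowest in suffixes 7 to 9, and their ranges in 1 to 3 and 4 to 6 overlapped. Both genes lie side by side, with starts 6.47 kb apart, and are close paralogs. Reads that fit both may have been lost in counting or counted for the wrong gene. Their promoters are shown because these genes moved together. They are 300 bases from 250 before to 50 after the RefSeq start on GRCm38.p6, plus strand, 5′ to 3′, at chr8:94178839-94179138 for *Mt1* and chr8:94172368-94172667 for *Mt2*. Capitals mark matches to the core of a metal response element, TGCACNC or TGCGCNC on either strand. There are 3 in *Mt1* and 4 in *Mt2*, while 25.7% of 32851 promoters hold at least 1 and 1.97% at least 3.
Mt1: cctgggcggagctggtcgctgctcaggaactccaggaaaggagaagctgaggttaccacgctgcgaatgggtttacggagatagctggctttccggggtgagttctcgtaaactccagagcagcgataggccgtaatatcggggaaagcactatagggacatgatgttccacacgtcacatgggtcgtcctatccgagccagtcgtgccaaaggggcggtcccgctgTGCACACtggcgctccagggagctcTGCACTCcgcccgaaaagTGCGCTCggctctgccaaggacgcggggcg
Mt2: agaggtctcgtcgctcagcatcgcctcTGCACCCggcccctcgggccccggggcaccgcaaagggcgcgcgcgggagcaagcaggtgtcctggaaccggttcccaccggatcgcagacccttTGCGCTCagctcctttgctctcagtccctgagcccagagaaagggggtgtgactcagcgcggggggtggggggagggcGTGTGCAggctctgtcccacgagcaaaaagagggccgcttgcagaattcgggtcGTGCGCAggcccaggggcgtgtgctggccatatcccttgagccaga

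*Il6* followed the same order of libraries. It was at 9540, 4599 and 4462 CPM in suffixes 1 to 3, 1425, 2410 and 2978 in 4 to 6, 1819, 1717 and 2259 in 7 to 9 and 6684, 9903 and 8267 in 10 to 12. Suffixes 4 to 9 were again below all other libraries. The log2 fold changes were -1.59 (SE 0.31, adjusted p = 0.00612, edgeR) and -1.80 (SE 0.32, adjusted p = 0.00631, edgeR), and both missed the threshold after thinning, at -1.30 and -1.68. *Cxcl5*, a neutrophil attractant, was the 1 gene of 14 tested chemokine, cytokine and adhesion genes that was higher, at 1234, 527 and 456 CPM in suffixes 4 to 6 against 23.0, 0 and 0 in 1 to 3. With 1 UMI in suffixes 1 to 3 its ratio was 79.4 (95% counting interval 14.2 to 3148). *Ccl2*, *Cxcl1* and *Ccl11* did not pass in either run.

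Matrix genes moved the other way. Of 20 tested interstitial matrix genes, 6 were higher and 1, *Timp3*, lower in suffixes 4 to 6, and likewise 6 and 1 in 7 to 9, with medians of 1.44 and 1.41 on the log2 scale against 0.00 and 0.01 over all genes. *Col3a1*, the chain of collagen III (ENSMUSG00000026043), was at 1954, 1093 and 1229 CPM in suffixes 1 to 3, 6644, 4509 and 6266 in 4 to 6, 4809, 3453 and 6125 in 7 to 9 and 1119, 976 and 1715 in 10 to 12. No library of suffixes 4 to 9 overlapped the rest. The summed list moved in other cells too, from 13465 to 19477 CPM in fibroblasts of suffixes 1 to 3 and 10 to 12 to 36104 to 45241 CPM in 4 to 9, and from 2311 to 6661 CPM to 10233 to 19909 CPM in *Myh11*-rich cells. The log2 fold changes of *Col3a1* in pericytes were 1.88 (SE 0.31, adjusted p = 0.00211, edgeR) and 1.62 (SE 0.31, adjusted p = 0.00894, edgeR). *Col5a2*, *Col6a3*, *Postn* and *Cthrc1*, all genes of fibrillar or pericellular matrix, were higher in both runs. *Timp3* was at 919, 1511 and 1176 CPM in suffixes 1 to 3, 274, 236 and 217 in 4 to 6, 455, 415 and 775 in 7 to 9 and 1377, 1415 and 1317 in 10 to 12, lower by 2.43 (SE 0.29) and 1.25 (SE 0.28) on the log2 scale.

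Basement membrane genes were higher as well, 4 of 11 tested in each run and 0 lower, with medians of 1.32 and 1.47. Over all genes 3.48% and 1.36% were higher. In *Myh11*-rich cells the summed list was at 10272 to 15907 CPM in suffixes 4 to 9 and 2280 to 7432 CPM in the others. In endothelium it was at 8555 to 12827 CPM and 4539 to 9123 CPM, which overlapped, as did the ranges in pericytes and fibroblasts. *Col18a1*, whose collagen XVIII yields endostatin (ENSMUSG00000001435), was at 46.0, 129 and 80.2 CPM in suffixes 1 to 3, 571, 608 and 719 in 4 to 6, 495, 661 and 412 in 7 to 9 and 201, 48.8 and 122 in 10 to 12. Its lowest value in suffixes 4 to 9 exceeded the highest elsewhere. The log2 fold changes were 2.81 (SE 0.41, adjusted p = 0.00133, edgeR) and 2.57 (SE 0.42, adjusted p = 0.00393, edgeR). *Col4a2* and *Fn1*, encoding fibronectin, were higher in both runs, *Nid1* in suffixes 4 to 6 and *Col15a1* in 7 to 9. The calls of *Col4a2* were lost under 8 and 7 of 22 alternatives, and those of *Fn1* under 9 and 6. That of *Nid1* was lost under 7 of 21 and that of *Col15a1* under 6 of 20. *Col15a1*, of collagen XV, had 0 UMIs in suffixes 1 to 3 and was at least 7.36-fold higher in 7 to 9, at the limit of 3 counts over the run.

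**Figure D5:**
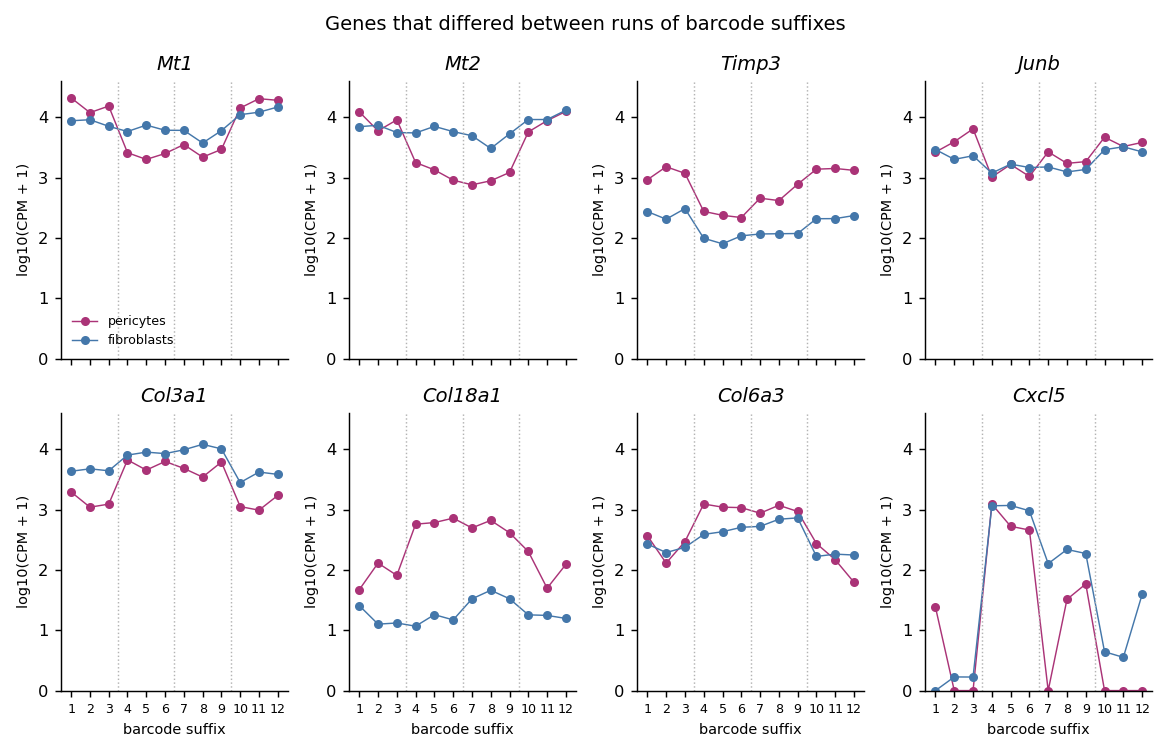
Levels of 8 genes as log10(CPM + 1) in the summed pericytes and summed fibroblasts of each of 12 libraries, in the order of the barcode suffix, with dotted lines between runs of 3. In suffixes 4 to 9 pericytes had less *Mt1*, *Mt2* and *Timp3* and more *Col3a1*, *Col18a1* and *Col6a3* than in the other 6 libraries, and *Cxcl5* was high in suffixes 4 to 6.

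Of the mural list, 4 of 15 tested genes were lower in suffixes 4 to 6 (*Cox4i2*, *Ebf1*, *Steap4* and *Art3*), 0 were higher, and 0 passed in 7 to 9. Pericytes of suffixes 4 to 6 had a median of 5965.5 UMIs, against 3497.5 in 1 to 3. The rule asks for detected mural genes, so deeper cells can pass it at lower levels. The part of this in the differences of the mural list was not tested. The calls of *Cox4i2* and *Ebf1* were lost under 9 and 11 of 22 alternatives. *Steap4* was at 713, 1351 and 454 CPM in suffixes 1 to 3, 312, 352 and 201 in 4 to 6, 525, 498 and 297 in 7 to 9 and 932, 1024 and 1133 in 10 to 12. In 4 to 6 it differed on the log2 scale by -1.63 (SE 0.35, adjusted p = 0.0103, edgeR). *Mustn1* was the 1 contractile gene of 13 that was lower in suffixes 4 to 6, and 0 of 8 vessel tone genes, 0 of 3 PDGF, Notch and angiopoietin genes, 0 of 3 interferon-induced genes, 0 of 9 glycolysis genes and 0 of 1 cell cycle genes passed in either run. Most members of these lists were too low to be tested.

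Immediate early and dissociation genes, which rise when tissue is digested or stressed, were lower too, 7 of 22 in suffixes 4 to 6 (*Junb*, *Egr1*, *Hspa1a*, *Hspa1b*, *Dnajb1*, *Btg2* and *Myc*) and 3 of 22 in 7 to 9 (*Junb*, *Dnajb1* and *Myc*). Over all genes 4.49% and 2.12% were lower. In fibroblasts the summed list was at 15707 to 19594 CPM in suffixes 4 to 9 and 22362 to 31628 CPM in the others. In endothelium it was at 21810 to 29229 CPM and 39828 to 51500 CPM. In pericytes and *Myh11*-rich cells these ranges overlapped. The call of *Junb* in 7 to 9 was lost under 16 of 22 alternatives. *Hspa1a*, an inducible chaperone gene, was at 11264, 20614 and 10127 CPM in suffixes 1 to 3, 2667, 5012 and 3760 in 4 to 6, 9740, 8297 and 9207 in 7 to 9 and 11574, 7464 and 3429 in 10 to 12. Every library of suffixes 4 to 9 lay below suffixes 1 to 3, those of 7 to 9 narrowly. The gene passed in 4 to 6 alone, where it differed on the log2 scale by -1.997 (SE 0.35, adjusted p = 0.00278, edgeR). *Fos*, the best known of these genes, had values of -0.83 (SE 0.46) and -0.16 (SE 0.46) that did not pass. The part of this list in the other differences was not tested.

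Other named genes rested on few UMIs in suffixes 1 to 3, whose pericytes held 112024 UMIs in all. *Hp* (haptoglobin), *Ecscr* and *Has1* (a hyaluronan synthase) had 0 UMIs there and were at least 18.9-fold, 5.12-fold and 4.63-fold higher in suffixes 4 to 6. *Ecscr* is an endothelial gene, and the endothelial genes summed to 26.7 to 69.0 CPM in suffixes 1 to 3 and 171 to 267 CPM in 4 to 6. *Cd248*, encoding endosialin, had 1 UMI there, with a ratio of 19.5 (95% counting interval 3.40 to 780) in 4 to 6 and 22.7 (3.99 to 904) in 7 to 9. *C1qtnf6* and *Fabp5*, a fatty acid carrier gene, were higher in 7 to 9 by 4.15 (SE 0.63) and 3.61 (SE 0.47). *Rcan2*, *Iigp1* and *Tmem100* were lower in 4 to 6, and *Rasd1*, *Arl13b* and *Tiparp* in 7 to 9, by 2.42 to 3.44 on the log2 scale.

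The counts of the run comparison depended on single libraries. Without rest 1 they were 72 and 35 genes, without peak 1 104 and 41, and without resolved 1 the count for suffixes 4 to 6 was 69. Without rest 2 and peak 2 that count was 89 and 96. The count for suffixes 7 to 9 was 12 without resolved 2, 42 without rest 3 and 43 without resolving 1, whose absence left 135 for suffixes 4 to 6. Without the 23 cells that carried fibroblast genes it was 195 and 91, and with only libraries of at least 10 pericytes, which leaves 1 library in suffixes 1 to 3, it was 46 and 9. *Mt1*, *Mt2* and *Col18a1* passed in suffixes 4 to 6 under every one of the 22 alternatives.

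Whether these differences were particular to pericytes was asked in a fit with fibroblasts of the same libraries. In edgeR's quasi-likelihood test of the interaction of run and cell group, 218 of 9574 genes passed (2.28%). That fit takes 1 spread for both groups, while the median SD within a run was 0.663 in pericytes and 0.143 in fibroblasts on the log2 scale. These SDs include counting noise, of which the pericyte sums, with fewer cells, hold more. How far the spread beyond counting noise differed between the groups was not tested. When limma was applied to the difference between pericytes and fibroblasts in each library instead, 5 of 1974 genes passed (*Ecscr*, *Col15a1*, *Cdc42ep2*, *Adamts4* and *Pla1a*), 256 had an unadjusted p under 0.05, and 4 passed in both. *Mt1* had an adjusted p of 0.143 in limma, and *Mt2*, *Il6* and *Col18a1* had 0.156.

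*Adamts4*, a protease that cleaves aggrecan, was at 1126, 482 and 668 CPM in pericytes of suffixes 1 to 3, 152, 256 and 410 in 4 to 6, 475, 249 and 268 in 7 to 9 and 1599, 2146 and 2511 in 10 to 12. Fibroblasts of these libraries had 8.54 to 45.5 CPM. *Col15a1* in fibroblasts was at 35.2 to 47.1 CPM in suffixes 1 to 3 and 6.92 to 16.9 in 4 to 6. In pericytes it was not found in suffixes 1 to 3, and it passed as higher in 7 to 9 but not in 4 to 6. The fibroblast values given for 4 to 6 are thus from a run without a pericyte call. For *Mt1*, *Mt2*, *Il6* and *Col18a1* the edgeR and limma tests of the difference gave unlike calls.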

How the data were processed

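Single-cell 3′ RNA sequencing (10x Genomics, version 2 kit) of 12 libraries was used. The authors aligned the reads to mm10 with Cell Ranger, per the submitters' processing notes, and deposited whole-number UMI counts for 27998 genes in each cell. Of per-sample value columns, 0 were left unused.

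Cells were gated on detected genes as given in the report. The members, gene lists and tests were chosen with earlier results of these data known. Doublets were not removed. UMIs were summed per library and cell group and tested in edgeR 4.0.16 (R 4.3.3; TMM, filterByExpr, quasi-likelihood test), with p adjusted by Benjamini-Hochberg across all genes tested. A sum needed at least 10 cells for the stage and cell group comparisons and any number for the runs. The stage and run comparisons did not leave out the genes of the rule. The standard error is the size of a log2 fold change over the square root of its F statistic. CPM are UMIs of a gene over those of the sum, scaled to 1e+06, and SDs are between libraries. Named genes were the rule's genes, members of the lists, and, per comparison and direction, the 5 genes past the threshold that changed most with every library in 1 direction, without gene models, haemoglobin and immunoglobulin genes. The interaction has no single direction, so its 10 genes with the lowest p were taken. *Pla1a* and *Cdc42ep2* were added after their values were seen. *Ccl19* was left out because several identifiers share its symbol. Each library is a pool of 3 animals, and p-values of the stages, runs and shares measure the spread between pools. In the cell group and interaction comparisons the library is a block. Their p-values measure how differences between cell groups vary from pool to pool. Wilson intervals (scipy 1.17.1), counting intervals and limits at a count of 0 cover counting error only. Alternatives were RLE factors, total counts, no filter, DESeq2 1.42.0, a stricter rule, thinning, the study's limits, blocks, subsets of libraries and limma 3.58.1, those on at least 10 pericytes, on all 12 libraries by stage and on limma differences having been added after the data were seen. The fits were tested on simulated data. Deviations of same-numbered libraries from their label's mean correlated with r between -0.12 and 0.288 across genes, and were not treated as pairs. Strand was not stated for the counting, so overlapping and antisense genes may share reads. Promoters came from RefSeq on GRCm38.p6 for 3 of 5 genes looked up. *Higd1b* and *Ccl2* had no entry. One gene of the mural list is not reported here by name; counts over the list include it.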

Additional observations from a re-analysis of the deposited data

Results flagged for a closer look

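The run differences of 28 named genes were unlike in pericytes and fibroblasts by edgeR's interaction test, with Benjamini-Hochberg adjustment over 9574 genes, of which 2.28% passed. Of the 28, 10 were named for the lowest p in this same test (*Cck*, *Angptl4*, *Serpine2*, *Mmp13*, *Adamts4*, *Sfrp4*, *Apoe*, *Bglap*, *Mt2* and *Aqp1*), so their number is no result. These p-values take 1 spread for both cell groups, whereas the SD within a run, counting noise included, was larger in pericytes. In the limma test of differences per library, *Adamts4* and *Col15a1* passed among these 28.

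For genes of matrix and basement membrane the adjusted p by edgeR was 7.03e-12 for *Col15a1*, 8.85e-10 for *Col18a1*, 0.00721 for *Col3a1*, 0.00188 for *Col4a2*, 0.0373 for *Col6a3*, 2.06e-12 for *Fn1* and 6.62e-07 for *Nid1*. It was 1.97e-15 for the protease *Adamts4*, 1.07e-08 for *Has1*, 2.01e-05 for *Cd248* and 2.44e-17 for the protease inhibitor *Serpine2*. For the bone and cartilage genes *Mmp13*, *Sfrp4* and *Bglap* it was 5.88e-16, 8.68e-14 and 5.39e-13. These were high in the pericytes of resolving 1, at 1042, 2993 and 3634 CPM.

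For metallothioneins and inflammatory genes it was 1.13e-08 for *Mt1*, 6.78e-13 for *Mt2*, 5.8e-06 for *Il6*, 0.00471 for *Cxcl5*, 7.75e-12 for *Hp* and 3.51e-12 for the interferon-induced gene *Iigp1*. For the mural genes *Steap4* and *Cox4i2* it was 1.27e-05 and 0.0268. The lipid genes *Angptl4*, *Apoe* and *Fabp5* had 7.56e-18, 1.69e-13 and 3.51e-12, the water channel gene *Aqp1* had 1.16e-12, and *Tiparp* had 0.0169.

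*Cck* had the lowest value, 8.3e-38. In pericytes it was at 115, 3923 and 481 CPM in suffixes 1 to 3, 396, 321 and 77.4 in 4 to 6, 758, 257 and 364 in 7 to 9 and 3414, 3854 and 2327 in 10 to 12, and the limma test gave an adjusted p of 0.178. The single high value in suffixes 1 to 3 came from peak 1, with 9 pericytes.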

How the results depend on the processing

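The comparisons hold few cells, and depth limits them: 30 pericytes with 112024 UMIs stood behind suffixes 1 to 3, and differences of low genes were not detectable there. Of 127 values of the counts and shares under alternatives other than leaving out 1 library, 98 were labelled unchanged. For a count of genes this meant staying within a fixed ratio of the main count, without regard to direction. For a difference in share it meant keeping its sign, whatever its size. With 1 library left out, 123 of 143 were labelled unchanged. Of 205 results for named genes, 1675 of 1861 values kept direction and threshold, 180 lost the threshold and 6 reversed; with 1 library left out 2241 of 2460 kept both, 219 lost the threshold and 0 reversed. The causes of these changes were not tested.

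Without a filter on low counts, the calls for peak, resolving and resolved were 13, 12 and 8, and for suffixes 4 to 6, 7 to 9 and 10 to 12 they were 276, 146 and 39. DESeq2 gave 1 for resolving, 107 for 7 to 9, 4 for 10 to 12 and 126 for the interaction. With at least 4 mural genes the calls were 10 for resolving, 94 for 4 to 6 and 21 against *Myh11*-rich cells, where fewer cells entered. Without cells carrying fibroblast genes resolving had 1. After thinning the calls were 81 for 4 to 6, 31 for 7 to 9, 8 against *Myh11*-rich cells and 76 for the interaction. With only the libraries compared, resolving had 3 and 7 to 9 had 42. With only libraries of at least 10 pericytes the runs had 46, 9 and 2. With the suffix run as a block the stages had 5, 4 and 15 in the 8 libraries and 0, 0 and 0 in all 12. The limma test of differences gave 5 for the interaction.

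The labels number libraries 1 to 3 within each stage. Same-numbered libraries also had consecutive barcode suffixes, and no other link between them is given in the sources used here. With a replicate block 5 genes were called for resolving in the 8 libraries and 0 in all 12.

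With each library left out in turn, calls ranged from 0 to 3 for peak and for resolving, 0 to 2 for resolved, 69 to 215 for suffixes 4 to 6, 12 to 97 for 7 to 9 and 0 to 8 for 10 to 12. They ranged from 1726 to 1977 against fibroblasts, 2426 to 2596 against endothelium, 183 to 295 against *Myh11*-rich cells and 156 to 278 for the interaction. The share against rest differed by -0.840 to -0.215 percentage points at peak, -1.07 to -0.443 in the resolving and -0.507 to 0.646 in the resolved stage, with -0.270 without rest 1. Against suffixes 1 to 3 it differed by 0.684 to 0.918 in 4 to 6, 0.949 to 1.73 in 7 to 9 and -0.180 to 0.149 in 10 to 12. The last was -0.0159 after thinning.

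Reversed log2 fold changes were -0.15 for *Cxcl10* against endothelium with at least 4 mural genes, and -1.09 and -0.34 for *Olfml3* against endothelium without cells carrying fibroblast genes and after thinning. Against *Myh11*-rich cells *Olfml3* gave -0.26 and -0.80 under the same settings, and *G0s2* gave -1.04 after thinning.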
